A study of Mus musculus with 2 samples.

Results

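The proteasome genes described here are the 50 protein-coding mouse genes whose symbol begins with Psm, a letter from a to g, and a number, among 21474 protein-coding genes in the deposited gene tables. They were chosen by symbol alone, and 4 pseudogenes with such names were left out. The RNA came from granulocyte-monocyte progenitors (GMP), the marrow precursors of neutrophils and monocytes, of male C57BL/6J mice aged 5 to 6 weeks. The data hold 1 group of 2 libraries, GMP replicate 1 and GMP replicate 2, each made from a pool of 100 cells. No treatment, other genotype or other cell type was included, and the labels do not say whether the pools came from separate animals, so an SD given here is the spread of 2 libraries and can be technical in origin. No test between conditions was possible, and the values are given as a description.

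Replicate 1 held 40509954 expected counts and replicate 2 held 35675702. All 7 marker genes listed for GMP were above 10 TPM (transcript counts divided by transcript length and scaled to a fixed total) in each library, and Mpo, myeloperoxidase, led with 6332 and 6602 TPM. Of 21 markers of other blood cells, 11 had 0 counts in both libraries and 3 reached 1 TPM in both, and their summed level was 14.6 TPM in replicate 1 and 18.97 TPM in replicate 2. T cell markers Cd3e, Cd3g and Cd8a and B cell markers Cd79a and Ms4a1 were at 0 counts. Hba-a1, C1qa, C1qb and Pf4 were at 0 counts in replicate 1 and at 14 to 19 counts in replicate 2. The part of other cells in the values below was not tested. In pooled cells, fewer cells of a type and less RNA per cell cannot be told apart.

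The proteasome is the protease of the cytosol and nucleus that degrades proteins tagged with ubiquitin. Its barrel, the 20S core, is built of outer rings of alpha subunits (Psma genes) and inner rings of beta subunits (Psmb genes), and 3 of the beta subunits carry the catalytic sites. The 19S regulatory particle caps the barrel, and consists of a base with a ring of ATPases (Psmc genes) that unfolds substrates and a lid (most Psmd genes) that removes ubiquitin. In lymphoid cells and in cells exposed to interferon, Psmb8, Psmb9 and Psmb10 take the catalytic places of Psmb5, Psmb6 and Psmb7, and the resulting immunoproteasome changes which peptides are offered on MHC class I molecules. Psmb8, known as beta5i or LMP7, replaces Psmb5, Psmb9, known as beta1i or LMP2, replaces Psmb6, and Psmb10, known as beta2i or MECL-1, replaces Psmb7.

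Interferon acts on immunoproteasome genes through factors that include IRF1, and the constitutive genes answer to NRF1, the product of Nfe2l1, when proteasome activity is short. Promoter windows of RefSeq (GRCm38.p6, 250 bases before to 50 bases after each start) were therefore read for the letters these factors are known to bind, and the stretches of the catalytic genes and of the PA28 gene Psme1 that held such letters are shown because these genes carry the comparisons below. Each is 30 bases, 5′ to 3′ on the strand of the gene, with the match in capitals. The place in brackets is that of any base of the whole stretch, and not of the capitals.
Psmb8 (chr17:34198088-34198117, + strand, in an exon of Psmb8-201): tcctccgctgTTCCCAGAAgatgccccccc
Psmb5 (chr14:54618023-54618052, - strand, outside the annotated gene): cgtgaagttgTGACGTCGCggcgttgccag
Psmb6 (chr11:70525338-70525367, + strand, in an exon of Psmb6-203): ctaaagagagTGACGGAGCgctttacgacg
Psme1 (chr14:55578493-55578522, + strand, in an exon of Psme1-208): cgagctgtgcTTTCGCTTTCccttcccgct

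The capitals in Psmb8 match TTCNNNGAA, the gamma-interferon activated site, and begin 97 bases before the RefSeq start. Those in Psmb5 and Psmb6 match TGACNNNGC, the antioxidant response element that NRF1 binds, and begin 47 and 9 bases before the start. The annotated Psmb6 gene begins at 70525367, the last base of its stretch, so its capitals lie before the gene and in no exon of it. Those in Psme1 match GAAANNGAAA, the interferon-stimulated response element, on the minus strand, and begin at base 10 after the start. Windows were found for 42 members, and Psma8, Psmb1, Psmb2, Psmb7, Psmc3, Psmd3, Psmd7 and Psmg2 had none. TTCNNNGAA stood in the windows of 3 members (Psmb8, Psmd2 and Psmg1), which is 6.67% of 45 member windows and 8.30% of all 32851 windows. TGACNNNGC stood in those of 6 members (Psmb5, Psmb6, Psmc6, Psmd12, Psmd9 and Psme4), 13.3% of member windows and 12.4% of all. GAAANNGAAA stood in those of 5 members (Psmb3, Psmd4, Psmd9, Psme1 and Psmg4), 11.1% of member windows and 3.44% of all. Both strands were searched for 11 motifs in all, and of the other 8 the ETS motif CCGGAAGT was in the windows of 9 members, 22.2% of member windows and 3.89% of all. A match is a run of letters and not a site shown to be bound.

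Proteasome genes were expressed almost without exception in GMP. Of the 50, 49 were at 1 TPM or more in each library, against 45.6% of protein-coding genes, and 45 were at 10 TPM or more in both, against 26.1%. The median of their mean levels was 67.4 TPM, against 14.3 TPM over the 9782 protein-coding genes that reached 1 TPM in each library, and 45 members lay above that median. Their summed level was 4177 TPM in replicate 1 and 4009 TPM in replicate 2, and their share of the TPM on protein-coding genes was 0.847% and 0.812%. The member below 1 TPM was Psmb11, the thymus-specific catalytic subunit beta5t, with 5 counts (0.04 TPM) in replicate 1 and 0 counts in replicate 2. The other member with tissue-restricted use, Psma8, the testis alpha subunit that replaces Psma7 in germ cells, had 1.78 TPM (80 counts) in replicate 1 and 3.80 TPM (153 counts) in replicate 2, next to Psma7 at 190 and 194 TPM.

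**Figure D1:**
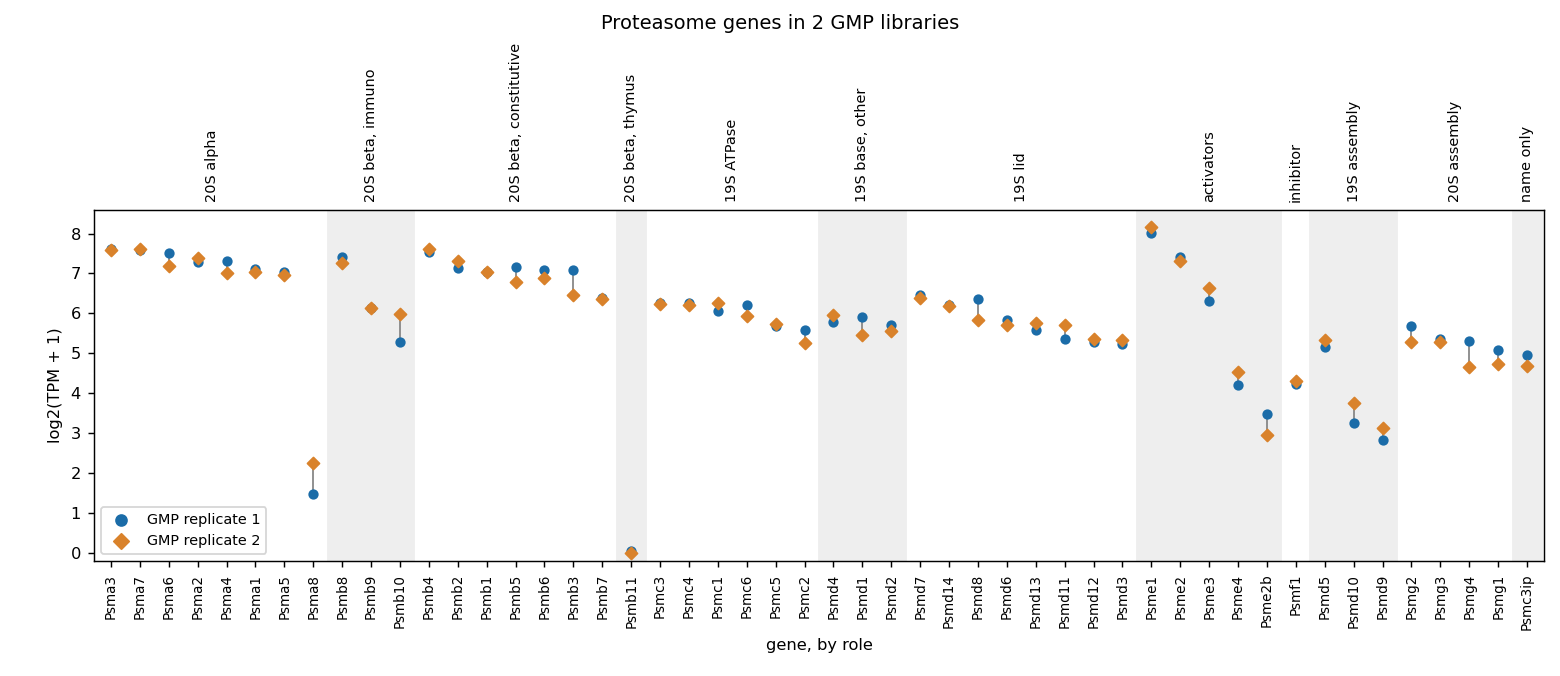
The level of each of the 50 genes as log2(TPM + 1) in GMP replicate 1 (circles) and GMP replicate 2 (diamonds), grouped by role and ordered within a role by mean level. Apart from Psmb11 and Psma8, the 20S subunits lie between 38.3 and 194 TPM, and Psme1 is highest at 256 and 284 TPM.

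In the catalytic places of the barrel, the immuno genes were expressed alongside the constitutive ones, and their order differed from place to place. Psmb8 had 171 TPM in replicate 1 and 152 TPM in replicate 2, against 143 and 110 TPM for Psmb5 in the same order of libraries. Psmb9 stood at 69.6 and 69.4 TPM, against 134 and 117 TPM for Psmb6. Psmb10 stood at 38.3 and 62.3 TPM, against 83.0 and 81.1 TPM for Psmb7. By TPM, Psmb8 was thus above its partner in both libraries, while Psmb9 and Psmb10 were below theirs in both.

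As a share of the pair's TPM, Psmb8 made up 54.4% in replicate 1 and 58.1% in replicate 2, a mean of 56.2% ± 2.55 (SD, n = 2). Psmb9 made up 34.2% and 37.2%, a mean of 35.7% ± 2.18, and Psmb10 31.6% and 43.5%, a mean of 37.5% ± 8.39. In each pair the immuno share was the higher one in replicate 2. Taken from the expected counts, the share of Psmb8 was 64.9% in replicate 1 (63.9 to 65.9% as the 95% Wilson interval) against 69.2% (68.1 to 70.3%) in replicate 2. That of Psmb9 was 32.4% (30.9 to 33.9%) and 37.9% (36.2 to 39.6%), and that of Psmb10 was 34.3% (32.8 to 35.9%) and 46.1% (44.5 to 47.6%).

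The place of Psmb8 above Psmb5 depended on how reads were assigned to transcripts. All 2979 and 2053 counts of Psmb5 were on its single transcript. Psmb8 had 5515 and 4613 counts, divided mainly between Psmb8-201 and Psmb8-203. Psmb8-201, the form with the complete consensus coding sequence, held 48.7% of the gene's TPM in replicate 1 and 56.6% in replicate 2. Psmb8-203, a form whose coding sequence is annotated as incomplete, held 46.7% and 39.7%. With TPM of complete coding transcripts alone, the share of Psmb8 was 36.8% in replicate 1 and 43.9% in replicate 2. With all counts of each gene divided by the effective length of its principal transcript, it was 47.3% and 52.2%. Which of Psmb8 and Psmb5 was the higher per molecule therefore cannot be told from these tables.

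Psmb9 had a larger dependence of the same kind, and its direction did not change. Psmb9-202, a form whose coding sequence is annotated as incomplete, held 52.1% and 50.4% of the gene's TPM in replicates 1 and 2. These rested on 291 and 253 counts over an effective length of 273 and 276 bases. The complete form Psmb9-204 held 19.8% and 30.3% from 482 and 658 counts, and the retained intron form Psmb9-205 held 27.2% and 18.8%. With complete coding transcripts alone the share of Psmb9 in its pair was 10.9% and 19.2%, and with counts over the principal transcript's length 20.4% and 24.7%. Psmb10 had 1 transcript, and Psmb7-201 held 96.4% and 99.5% of Psmb7, so that the share of Psmb10 was between 31.6% and 34.3% in replicate 1 and between 43.5% and 46.1% in replicate 2 under all 5 measures. The posterior SD of the counts, which measures reads that could belong to another gene, was 0 for all 6 genes.

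**Figure D2:**
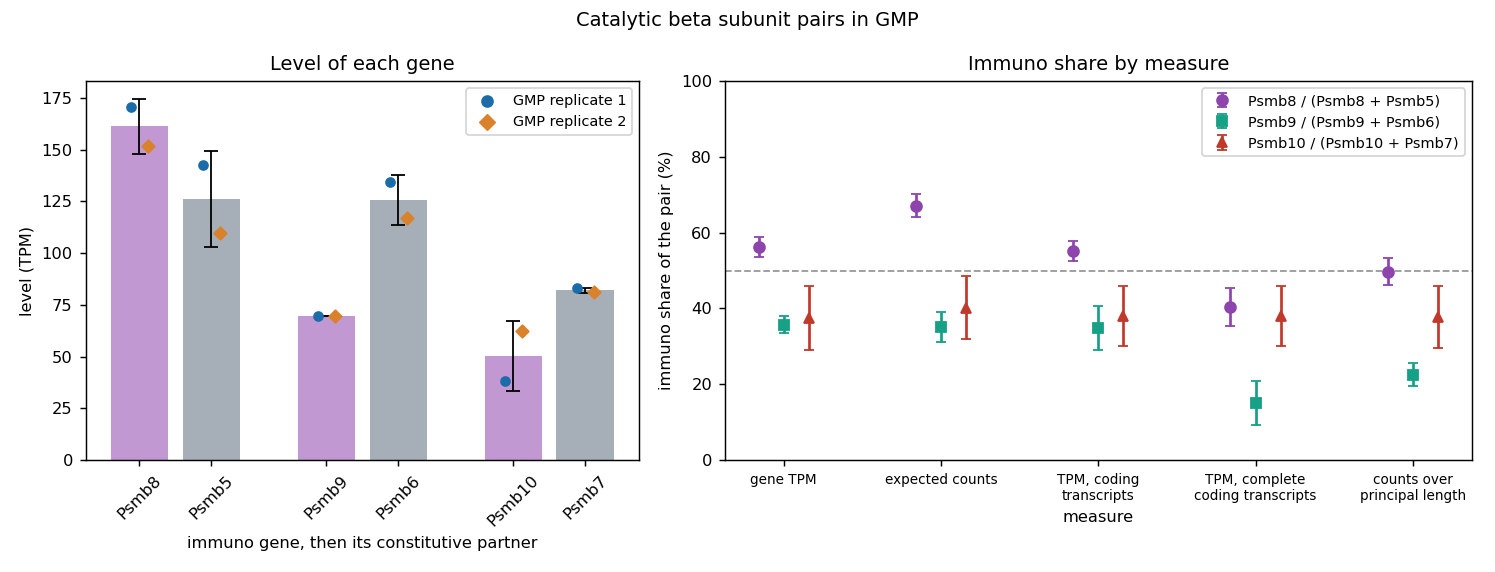
Left, TPM of each catalytic beta gene (bars, mean; error bars, SD; circles, replicate 1; diamonds, replicate 2), with each immuno gene left of its constitutive partner. Right, the immuno share of each pair in percent under 5 measures (mean and SD of 2 libraries), where Psmb8 moves from 67.1% by counts to 40.4% by complete coding transcripts and Psmb10 stays between 37.5% and 40.2%.

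Psmb8 (chromosome 17, 34197721 to 34201454, + strand) and Psmb9 (chromosome 17, 34181987 to 34187764, - strand) lie in the MHC class II region beside the peptide transporter genes. Psmb9 overlaps Tap1 on the opposite strand, and whether the counting used strand is not stated. Psmb10 is on chromosome 8 (105935735 to 105938444, - strand). Psmb5 is on chromosome 14 (54614119 to 54618022, - strand), Psmb6 on chromosome 11 (70525367 to 70527858, + strand) and Psmb7 on chromosome 2 (38588036 to 38644087, - strand), all on GRCm38 as annotated in GENCODE M21. Summed over both genes of a place, the beta5 place held 313 and 262 TPM, the beta1 place 204 and 186 TPM and the beta2 place 121 and 143 TPM. Over the 3 places together, the immuno genes held 278 of 638 TPM (43.6%) in replicate 1 and 284 of 591 TPM (48.0%) in replicate 2. With complete coding forms alone they held 28.7% and 37.8%.

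The other beta subunits have no immuno counterpart. Psmb4, a structural subunit that is among the last to join the ring, was the highest constitutive beta gene at 184 TPM in replicate 1 against 193 TPM in replicate 2. On protein-coding forms alone it had 86.9 and 70.9 TPM, below Psmb2 in both libraries and the lowest of the 7 constitutive beta genes in replicate 2. Psmb2 was at 141 and 158 TPM, and Psmb1 at 130 TPM in both. Psmb3 differed most between the libraries, with 135 TPM in replicate 1 against 87.2 TPM in replicate 2. Psmb7 was the lowest constitutive beta gene in both libraries.

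The 7 alpha subunits of the standard barrel were closer together than the constitutive beta subunits by gene TPM. Psma3 had the highest mean, with 194 and 193 TPM, although Psma7 was above it in replicate 2, and Psma5 was lowest in both libraries at 131 and 124 TPM. The ratio of the highest to the lowest mean was 1.51. On protein-coding forms alone Psma3 had 127 TPM in replicate 1 against 86.1 TPM in replicate 2, and was then the lowest of the 7 in both libraries. Psma7 and Psma6 had mean levels of 192 and 164 TPM, Psma2 160 TPM, Psma4 142 TPM and Psma1 134 TPM. Psma3 also had the highest posterior SD of the standard alpha subunits in replicate 1, 15.9 of 4345 counts.

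In the 19S particle, the ATPases Psmc1 to Psmc6, which thread substrates into the barrel, lay between 37.5 and 76.3 TPM in single libraries. Psmc3 had the highest mean, with 75.2 and 74.6 TPM, although Psmc4 led in replicate 1 with 75.4 TPM and Psmc1 in replicate 2 with 76.3 TPM. Psmc2 was lowest in both libraries, at 47.0 and 37.5 TPM. Psmc4, Psmc1, Psmc6 and Psmc5 had mean levels of 74.1, 71.2, 66.1 and 51.1 TPM, so that 4 of the 6 ATPases were within 66.1 and 74.9 TPM. Among the other base subunits with Psm names, Psmd4, a ubiquitin receptor, had the highest mean, with 53.8 and 61.5 TPM. Psmd2, a scaffold, had the lowest, with 51.1 and 46.5 TPM. Psmd1, with 58.9 and 42.8 TPM, was the highest of the 3 in replicate 1 and the lowest in replicate 2, so that their order was not stable. No base subunit outside the ATPase ring reached the mean level of the 4 highest ATPases. Among lid genes with Psm names, Psmd7 was highest at 87.7 and 82.6 TPM and Psmd3 lowest at 37.0 and 39.1 TPM. Psmd14, the deubiquitinase of the lid and the partner of Psmd7, was at 72.6 and 71.6 TPM. Psmd8 had 81.4 TPM in replicate 1 against 55.9 TPM in replicate 2, the largest gap in the lid. Psmd6, Psmd13, Psmd11 and Psmd12 had mean levels of 54.0, 50.3, 45.4 and 38.9 TPM.

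Per length, core genes were higher than regulatory genes. The median of the 14 standard core genes was 142 TPM in replicate 1 and 130 TPM in replicate 2, against 56.2 and 53.2 TPM for the 17 regulatory genes, a ratio of 2.52 and 2.44. In each library 13 of the 14 core genes lay above Psmd7, the highest of these 17 regulatory genes, and Psmb7 was the exception. Sem1, a regulatory gene without a Psm name, was higher, at 99.2 and 91.1 TPM, and in replicate 2 it was also above Psmb3 (87.2 TPM). On protein-coding forms alone Psmb4 (86.9 and 70.9 TPM) was also below Psmd7 (87.7 and 82.6 TPM) in both libraries. Core genes were shorter, with a median effective length of 773 bases in replicate 1 against 1404 bases for regulatory genes, and by expected counts, which are not divided by length, the ratio was 1.41 and 1.53. Across members at a mean of 10 TPM or more, Spearman's rho of effective length and mean TPM was -0.48, and across the 6095 such protein-coding genes it was -0.32, as a description across genes. The part of length in the difference was not tested.

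With the genes listed here, levels of the Psm-named genes within each particle differed less from subunit to subunit than in the other complexes examined. The SD over subunits of log2(mean TPM + 1) was 0.34 in the core and 0.35 in the regulatory particle, against 0.55 in the CCT chaperonin (8 genes), 0.72 in the COP9 signalosome (9 genes), a relative of the lid, and 1.12 in the translation factor eIF3 (14 genes). The ratio of the highest to the lowest mean level was 2.35 in the core and 2.24 in the regulatory particle, against 2.77, 5.99 and 15.2. The regulatory values leave out Sem1, whose mean of 95.2 TPM is above that of Psmd7, so both would change with it. The core values leave out the immuno genes, Psma8 and Psmb11. Of the immuno genes, Psmb9 (69.5 TPM) and Psmb10 (50.3 TPM) had means below the lowest core gene, and Psmb8 (161 TPM) did not. The COP9 values keep both Cops7a (49.9 TPM) and Cops7b (12.3 TPM), and Cops7b was the lowest, with Cops8 next at 26.6 TPM. The size of these differences therefore depends on the genes listed. The eIF3 value rests on Eif3j1 and Eif3j2, a pair of near-identical genes that share reads, and without them the SD was 0.42 and the ratio 2.52.

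**Figure D3:**
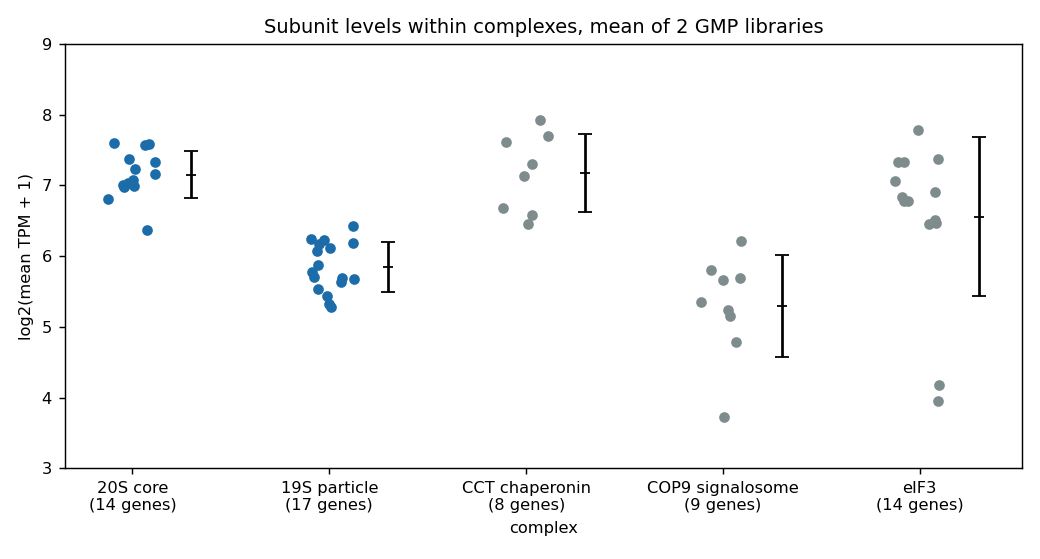
Each point is a subunit gene at log2(mean TPM + 1) over 2 GMP libraries, with the mean and SD over subunits beside it. The 14 standard core genes (82.0 to 193 TPM, immuno genes left out) and the 17 regulatory genes (38.0 to 85.2 TPM, Sem1 left out) form tight groups. Cops7b stands below the other COP9 genes, and Eif3j1 and Eif3j2 stand below the other eIF3 genes.

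Activators that open the barrel without the 19S particle spanned a wide range, from 6.73 to 284 TPM in single libraries. Psme1, the alpha subunit of the interferon-inducible PA28 ring, was the highest of all 50 genes at 256 TPM in replicate 1 against 284 TPM in replicate 2. Psme2, the beta subunit of the same ring, was at 168 and 159 TPM, so that Psme1 stood 1.52 and 1.78 times as high by gene TPM. On protein-coding forms alone Psme1 had 132 and 133 TPM against 142 and 125 TPM for Psme2, a ratio of 0.93 and 1.06, and Psme1 was below several alpha subunits, so its rank holds for gene TPM only. Part of the Psme1 level lay on Psme1-209, a short form of an effective length of 279 and 282 bases annotated to nonsense-mediated decay, with 39.9% and 43.8% of the gene's TPM. The complete coding form Psme1-208 held 51.7% and 46.2%, which is 132 and 131 TPM. Psme2b, a copy close to Psme2 in sequence, was lowest at 10.2 and 6.73 TPM, with 203 and 120 counts and a posterior SD of 5.14 counts in replicate 1, and is uncertain for that reason. Psme3, the nuclear PA28 gamma, was at 77.9 and 98.2 TPM, and Psme4, the PA200 activator known for its part in spermatogenesis, at 17.4 and 22.2 TPM. Psmf1, the inhibitor PI31, was at 17.8 and 18.9 TPM.

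Among assembly factors with Psm names, each had a lower mean level than every standard subunit of the particle it helps to build. The margin was small for Psmd5 (37.0 TPM against 38.0 TPM for Psmd3). Pomp, the maturation factor of the barrel, has no Psm name and was at 174 and 137 TPM, above several core genes. In replicate 2 Psmd5 was above Psmd3 and Psmc2. For the barrel, Psmg1 and Psmg2 encode a dimer that works on the alpha ring. Psmg1 had the lowest mean of the 4 Psmg genes, with 32.9 and 25.6 TPM, and Psmg2 the highest, with 50.7 and 38.0 TPM. Of the other dimer, Psmg3 had 40.1 and 38.1 TPM and Psmg4 had 38.9 and 24.2 TPM. For the 19S base, the chaperone Psmd5 had 34.8 and 39.2 TPM. Psmd10, known as gankyrin, had 8.61 and 12.5 TPM, and Psmd9 had 6.09 and 7.71 TPM. Psmc3ip is a member by name only, being a partner in meiotic recombination, and had 30.1 and 24.9 TPM.

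The share of members that differed between the libraries depended on the scaling when set against all genes. By TPM, past 1.5-fold at a mean of 10 TPM or more were 3 of 46 members (6.52%), against 15.0% of the 6095 protein-coding genes at that level. With expected counts under TMM or DESeq2 scaling it was 4 of 46 (8.70%), against 9.71% of genes, which is about the same share. Psmb10 was higher in replicate 2 by 1.63-fold, as 1 of 46 members against 8.78% of genes. Psmb3 and Psmg4 were lower in replicate 2 by 0.63 and 0.69 on the log2 scale, as 2 of 46 members against 6.27% of genes. The median absolute log2 ratio was 0.16 over members and 0.24 over all, and the members' levels were higher, with a median of 70.4 TPM against 25.1 TPM. Of the 46 members, 27 were higher in replicate 1 and 19 in replicate 2, where 45.6% of all protein-coding genes at that level were higher in replicate 1.

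**Figure D4:**
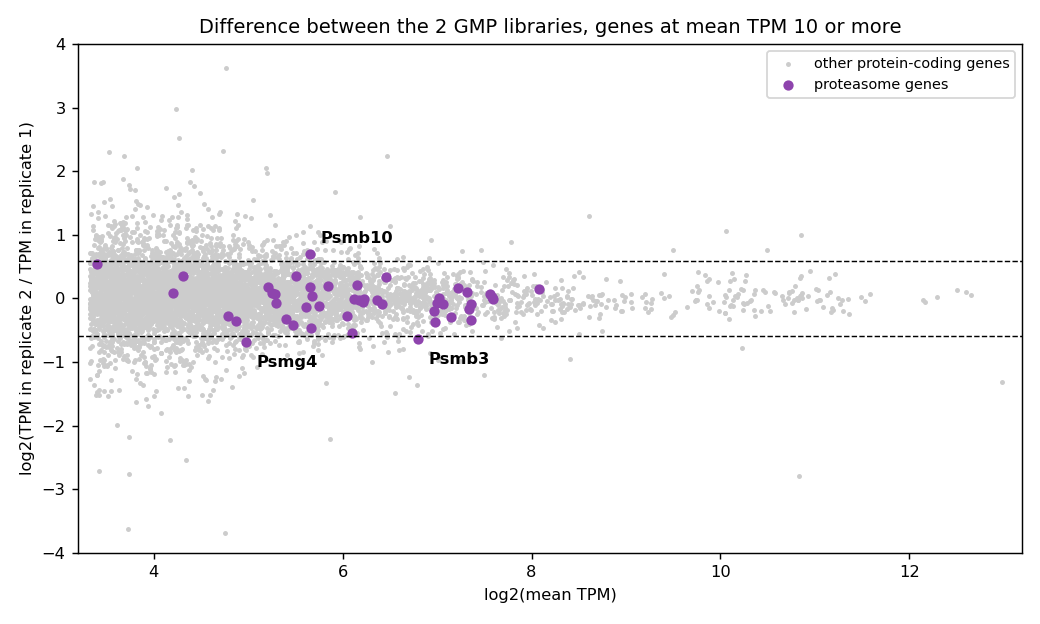
Each point is a protein-coding gene at a mean of 10 TPM or more, with log2(mean TPM) across and the log2 ratio of replicate 2 over replicate 1 upwards, and dashed lines at 1.5-fold. The 46 proteasome genes lie close to 0 apart from the named Psmb10, Psmb3 and Psmg4, and 5 genes fall outside the plotted range.

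The main form was clear in some members and divided in others. Of 39 members with several transcripts in the tables, and 11 with 1, 23 in all had a leading transcript with 90% or more of the TPM in both libraries. A member with 1 transcript and counts in both libraries is among the 23 by construction. This count was not made over all protein-coding genes, so it has no share to be set against. The leading transcript differed between the libraries in 3 of the 38 members of several transcripts at 10 TPM or more, against 27.3% of such protein-coding genes, and was not protein-coding in a library in 2 of 38, against 20.8%. In Psmb4 the coding form Psmb4-201 held 47.2% in replicate 1 and 36.7% in replicate 2, and the retained intron form Psmb4-202 held 39.7% and 40.6%, which made it the leading form in replicate 2. In counts, Psmb4-201 still had 2610 and 1905 against 1086 and 1046 for Psmb4-202, which is shorter. In Psmc3ip, Psmc3ip-201 held 42.8% and 29.8% and the retained intron form Psmc3ip-202 held 40.2% and 62.2%. In Psmg4, both forms were coding, with Psmg4-201 at 57.5% and 38.2% and Psmg4-202 at 42.5% and 61.8%.

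Other retained intron forms were seen beside a coding leader. Psmc4-205 held 37.4% in replicate 1 and 30.7% in replicate 2 of Psmc4. Psmd13-207 held 33.5% of Psmd13 in replicate 1 and 0% in replicate 2, and Psmf1-205 held 37.9% and 1.25% of Psmf1. These last forms appeared in a single library at more than a few percent, and their counts were 573 and 0 for Psmd13-207 and 104 and 3.27 for Psmf1-205. Total RNA holds unspliced RNA, and reads of it can be assigned to such forms, which was not tested.

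**Figure D5:**
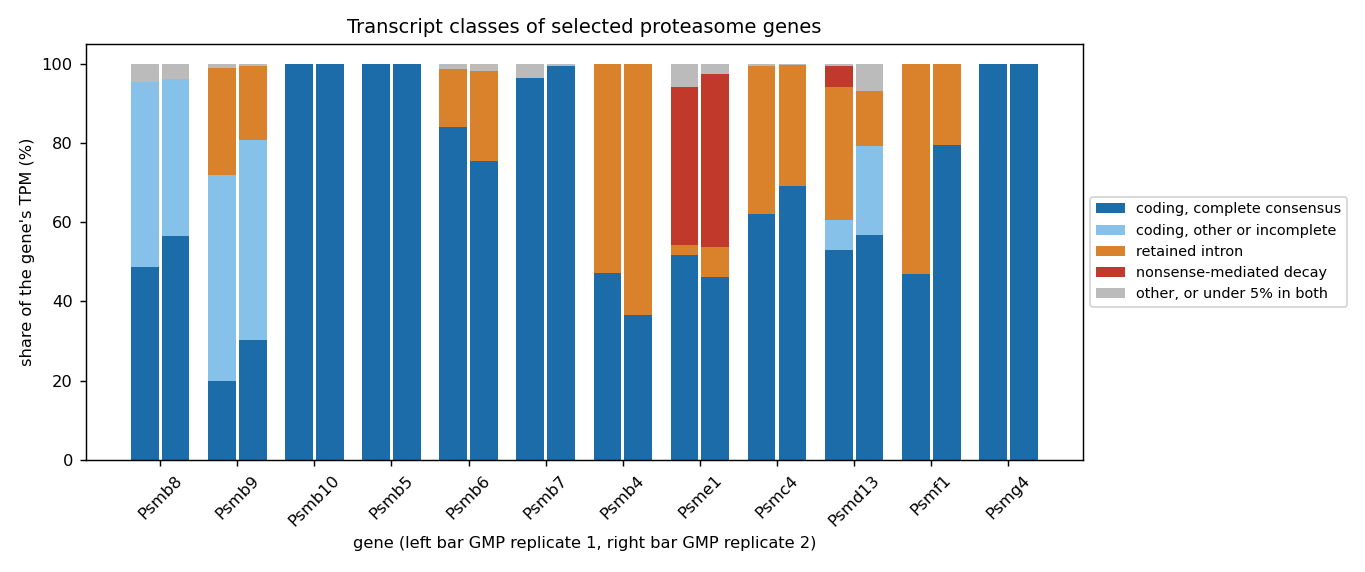
Share of each gene's TPM by annotated transcript class, with replicate 1 in the left bar and replicate 2 in the right bar of each gene. Psmb10 and Psmb5 have complete coding forms alone, Psmb9 has 19.8% and 30.3% on its complete form, and Psme1 has 39.9% and 43.8% on a form annotated to decay.

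Partners of the proteasome outside the Psm names were expressed with it. Of 18 listed, 17 had a row and all 17 reached 1 TPM in each library, with a median mean level of 33.9 TPM. The highest were Pomp, the maturation factor of the barrel, at 174 and 137 TPM, and Vcp, the p97 unfoldase, at 99.9 and 99.5 TPM. All 4 ubiquitin genes were above 10 TPM, led by Rps27a, which encodes ubiquitin fused to a ribosomal protein, at 2467 and 2131 TPM. Of 4 regulators of proteasome gene expression, Nfe2l2 was at 43.2 and 38.5 TPM, and Nfe2l1, which encodes NRF1, at 10.7 and 19.1 TPM, and Keap1 and Ngly1 were the others listed.

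On the route from immunoproteasome to cell surface, all 12 listed genes of MHC class I peptide loading reached 1 TPM in each library and 11 reached 10 TPM. B2m, the light chain of class I, had 1084 TPM in replicate 1 and 941 TPM in replicate 2, and the chaperone Calr 786 and 642 TPM. Tap1 and Tap2 encode the transporter of peptides into the endoplasmic reticulum. Tap1 had 21.8 and 29.2 TPM and Tap2 had 11.1 and 19.4 TPM, both higher in replicate 2, as was Psmb10. Of 16 listed interferon-related genes, 10 reached 1 TPM in each library and 3 (Ifit3, Cxcl10 and Usp18) had 0 counts. At these depths a count of 0 allows at most 0.0741 CPM (counts over the library's total, scaled) in replicate 1 and 0.0841 CPM in replicate 2. The highest were Irf8, a myeloid transcription factor, at 102.0 and 103.2 TPM, and Ifi47, an interferon-induced GTPase, at 47.6 and 40.9 TPM. Irf1 was at 19.9 and 18.0 TPM.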

How the data were processed

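Values came from the deposited gene and transcript tables of 2 total RNA libraries with spike-ins, quantified against the mm10 assembly and annotation M4, per text files that accompany the deposited tables. Neither the aligner nor the quantifier is given in the sources used here, and the use of strand in counting is not stated. The authors deposited expected counts (estimated, not whole), TPM and FPKM per gene, and each transcript's percent of the TPM of its gene. TPM is scaled over all rows of a table, spike-ins and numeric identifiers included. Genes were joined by Ensembl identifier without version to GENCODE M21, on the same assembly, and biotypes, coding lengths and completeness tags are M21's. The principal transcript is the longest coding one with a consensus (CCDS) tag and no truncation tag.

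Means have an SD over 2 libraries. Levels are TPM as deposited, and log values are log2(TPM + 1). Shares of counts have 95% Wilson intervals on rounded counts, and the limit behind a count of 0 is 3 counts; both cover counting error only. No test was run between groups, since there was 1 group. Alternatives used edgeR 4.0.16 (TMM) and DESeq2 1.42.0 (size factors) in R 4.3.3 on rounded expected counts; other steps used Python 3.11.15, pandas 2.3.3, numpy 2.4.6, scipy 1.17.1 and matplotlib 3.10.9. The fold call was run on simulated counts with planted changes larger than the 1.5-fold cut. Those counts varied between libraries by sampling alone and were not TPM. The run therefore checks the code and says nothing of how reliable the calls here are. The members and lists were chosen with earlier results of these data known. Every member is named. Values per library are given for the catalytic pairs, for members under 1 TPM, for those past 1.5-fold, and for the highest and lowest of each role. Of the other lists the 2 highest genes and those at 0 counts are given, except a gene that is not reported here, and transcripts where the leading form differs or is not coding. Other genes and transcripts given with values, and the comparison of core with regulatory particle, were chosen after their values were seen. Paaf1, a listed partner, was not analysed here.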

Additional observations from a re-analysis of the deposited data

How the results depend on the processing

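Each of the 2 libraries was left out in turn, and the units, filters and scalings were changed one at a time. Of 62 alternative values, 40 stayed within the spread between libraries or within 1.5 times the count. With 2 libraries, a pair share or the core ratio with a library left out always stays within that spread. Those values are among the 40 by construction and say nothing of stability. The share of Psmb8 in its pair was 67.1% by expected counts, 40.4% by TPM of complete coding transcripts and 49.7% by counts over principal length. The last 2, chosen after seeing the data, put the mean share under 50%, in both libraries by complete transcripts and in replicate 1 alone by principal length. That of Psmb9 was 15.1% and 22.5% under those last 2. Leaving out a library gave 54.4 to 58.1% for Psmb8, 34.2 to 37.2% for Psmb9 and 31.6 to 43.5% for Psmb10. The median member level was 136.6 TPM when rescaled to protein-coding genes, which hold 49.3% of TPM, 49.1 FPKM by the other deposited unit, and 61.9 to 67.9 TPM with a library left out. Psme1 over Psme2 was 0.999 on coding forms. Members past 1.5-fold were 5 of 49 with a filter of 1 TPM (26.9% of all genes), which adds Psma8 and Psme2b, 4 of 46 under TMM or DESeq2 scaling (9.71% of all genes), which adds Psmd8, and 0 past 2-fold (3.82% of all genes). The ratio of core to regulatory median was 1.47 by counts, 2.58 by coding transcripts, 2.73 by complete coding transcripts, 2.58 by principal length, and 2.44 to 2.52 with a library left out. The value of 2.73 takes Psmd8 as 0 TPM in both libraries. All of the TPM of Psmd8 (81.4 and 55.9) was on Psmd8-202, a coding form without a consensus tag. By log2 CPM (expected counts scaled to the library total) the SD over subunits was 0.38 in the regulatory particle, 0.44 in CCT, 0.61 in COP9 and 0.94 in eIF3, and with a library left out it was 0.31 to 0.39 in the core, 0.36 to 0.39 in the regulatory particle, 0.54 to 0.58 in CCT, 0.69 to 0.78 in COP9 and 1.06 to 1.19 in eIF3. No paired analysis was possible because there was 1 group.

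A pair of libraries from one population limits every SD, no condition was compared, and pools of 100 cells limit the molecules sampled, whatever the depth. RNA levels say nothing of which subunits are in assembled proteasomes.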
